A study of Caenorhabditis elegans with 4 samples.

Results

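HPL-2 peaks in the centre of the *Caenorhabditis elegans* X chromosome are described here. They were taken from the series-level peak list as the peaks on X whose midpoint lies between positions 5910001 and 11810000 of WormBase WS220, a stretch of 5.9 Mb that makes up 33.3% of X. There were 517 such peaks among 23530 in the genome, or 2.20% of the peaks on 5.88% of the genome. The study comprised 2 HPL-2 ChIP libraries and 2 input libraries, all from wild-type N2 worms at the third larval stage (L3), grown at 20 °C as mixed males and hermaphrodites. The ChIP used SDQ2340, an affinity-purified rabbit polyclonal antibody against HPL-2. A peak list was analysed for either ChIP replicate and for the whole series, and the input libraries were not analysed here. Nothing in the labels says that the replicates came from separate cultures, so their spread may be technical. The number of X chromosomes per cell differs between males and hermaphrodites, and the sexes cannot be told apart in these lists.

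HPL-2 belongs to the heterochromatin protein 1 family, whose chromodomain binds histone H3 methylated at lysine 9 and whose chromoshadow domain mediates contacts with other proteins. In *C. elegans*, H3K9 methylation and repeats are concentrated on the arms of the autosomes, and HPL-2 is known for silencing of repeats and of germline genes in somatic cells. The X chromosome is regulated as a whole in this animal: a condensin-based dosage compensation complex lowers its transcription in hermaphrodites, and much of it is silent in the germ line.

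HPL-2 peaks in the X centre were sparse and, as in other parts, mostly narrow. Replicate 1 had 437 peaks there and replicate 2 had 268, with a mean of 352.5 ± 119.5 (SD, n = 2), beside the 517 of the series-level list. These are densities of 74.1, 45.4 and 87.6 peaks per Mb. Series-level peaks covered 181.6 kb of the X centre (3.08%), replicate 1 peaks 153.3 kb (2.60%) and replicate 2 peaks 83.2 kb (1.41%). The series-level density lay above that of both replicates, whose SD was 20.3 peaks per Mb (n = 2). That SD does not measure the distance of the series-level list from a replicate.

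The peaks were spread over the whole X centre, with a few dense places. In 59 consecutive windows of 100 kb counted from position 5910001, the median window held 7 series-level peaks (quartiles 5 and 11.5), 6 replicate 1 peaks and 3 replicate 2 peaks. Only 1 window, from 6410001 to 6510000, had no series-level peak, and it held 2 replicate 1 peaks. No window was without a replicate 1 peak, and 4 were without a replicate 2 peak. Across windows the counts of the replicate lists had a Pearson r of 0.51 and a Spearman rho of 0.45 (n = 59 windows, which share 1 library per list and are not independent). Without the 2 windows farthest from the median in replicate 1 these were 0.50 and 0.41. Without only the window with most series-level peaks they were 0.59 and 0.44.

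Of 5 equal stretches of 1.18 Mb, the second one had the most peaks in every list. It runs from 7090001 to 8270000 and held 131 series-level peaks, 116 in replicate 1 and 82 in replicate 2. It also had the most sequence in peaks, at 60.9 kb, against 25.9 to 37.2 kb in the other stretches. The fourth stretch, from 9450001 to 10630000, had the fewest series-level peaks, with 82, and held 71 in replicate 1 and 39 in replicate 2. The first stretch, from 5910001 to 7090000, had 94 series-level peaks but the fewest in replicate 1, with 68, and 39 in replicate 2, the same number as the fourth. The order of the sparser stretches therefore depended on the list.

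**Figure D1:**
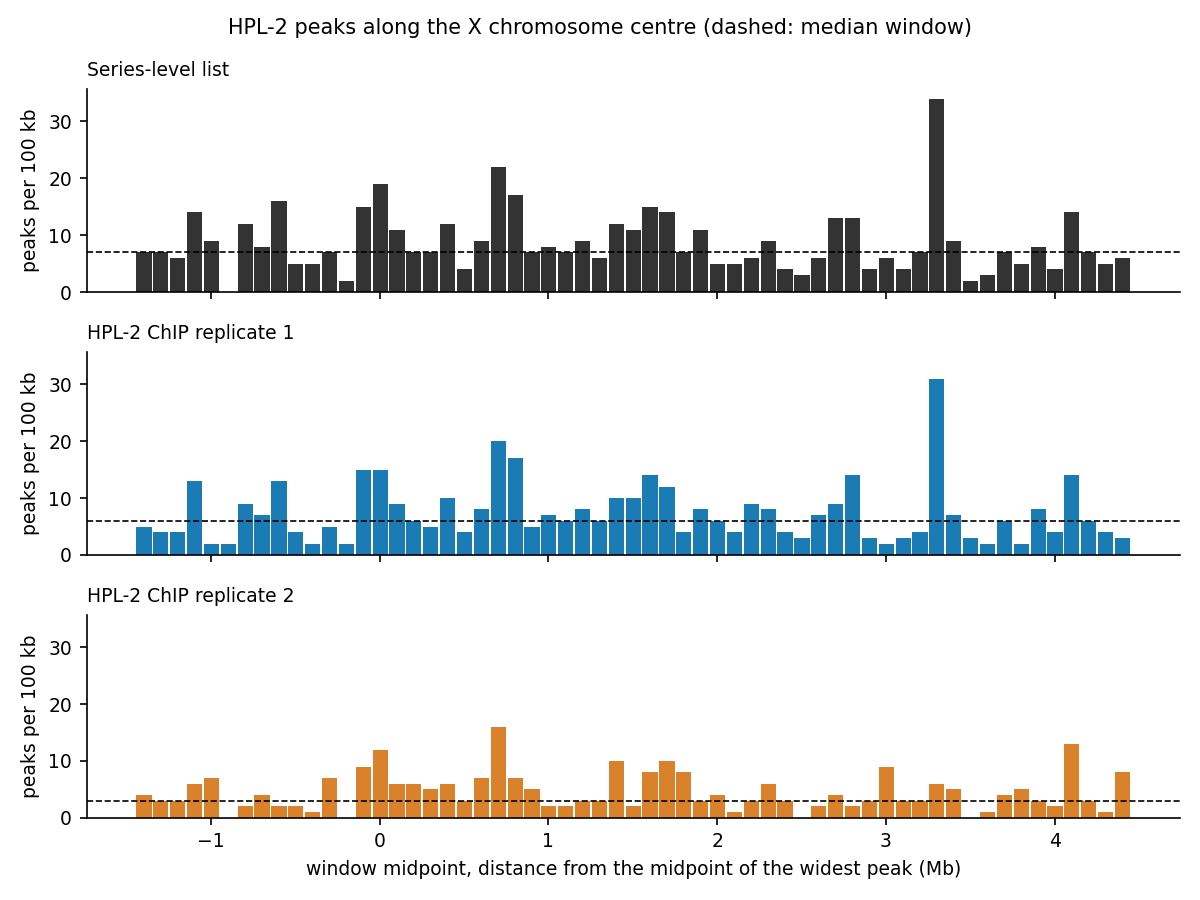
Number of HPL-2 peaks (vertical axis) in each of 59 windows of 100 kb along the X centre, for the series-level list and both ChIP replicates; the horizontal axis is the distance in Mb of each window from the midpoint of the widest peak, and dashed lines are the median windows (7, 6 and 3 peaks). The window with 34 series-level peaks stands out in replicate 1 (31 peaks) and not in replicate 2 (6 peaks).

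The window with most series-level peaks rested largely on replicate 1. Between 10610001 and 10710000 the series-level list had 34 peaks, replicate 1 had 31 and replicate 2 had 6. Of the 34 series-level peaks, 26 were found in replicate 1 only, 5 in both replicates, 1 in replicate 2 only and 2 in neither. The 5 found in both included the widest of the window, from 10636930 to 10637933 (1004 bp, score 43.42), and its highest-scoring peak, from 10681053 to 10681421 (score 47.96). The median score of all 34 was 10.04. In replicate 2 the densest window was another, from 8010001 to 8110000, with 16 peaks, where replicate 1 had 20 and the series-level list 22. Of all windows, 47 had more peaks in replicate 1, 6 had equal numbers and 6 had more in replicate 2. The largest excess in replicate 2 was from 10310001 to 10410000, with 9 peaks against 2 in replicate 1; this window was singled out after its values were seen.

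Of the 517 peaks, 132 were found in both replicate lists by an overlap of at least 1 bp (25.5%, Wilson 95% interval 22.0 to 29.5%). Another 276 were found in replicate 1 only (53.4%, 49.1 to 57.6%), 61 in replicate 2 only (11.8%, 9.30 to 14.9%) and 48 in neither (9.28%, 7.07 to 12.1%). These intervals cover counting error only and are too narrow, because neighbouring peaks are not independent. Replicate 1 thus held 78.9% of the series-level peaks of the X centre and replicate 2 held 37.3%. Over all 23530 series-level peaks, 43.5% were found in both replicates and 39.1% in replicate 1 only. Another 8.16% were found in replicate 2 only and 9.23% in neither, so the X centre share found in neither was near that of the genome. Seen from the replicates, 138 of 437 replicate 1 peaks (31.6%, 27.4 to 36.1%) overlapped a replicate 2 peak, and 147 of 268 replicate 2 peaks (54.9%, 48.9 to 60.7%) overlapped a replicate 1 peak. The series-level list missed 21 replicate 1 peaks, whose median score in that list was 3.91, and 61 replicate 2 peaks, with a median score of 5.84. The highest-scoring of those missed were narrow, from 9347605 to 9347753 in replicate 1 (149 bp, score 11.92) and from 9059202 to 9059363 in replicate 2 (162 bp, score 11.96). Overlaps seen from the replicates, and peaks missed, were not counted in other parts or over the genome. The scale of the authors' score is not stated, so it ranks peaks within a list only.

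In value, replicate support in the X centre was below that on the X arms and within the range of the autosome centres. Peaks found in both replicates were 25.5% of series-level peaks in the X centre, against 41.5% on the left arm of X and 38.6% on its right arm. In the centres of the autosomes, taken as the middle of 3 equal parts, the shares were 28.7% on I, 24.8% on II, 26.1% on III, 30.6% on IV and 30.1% on V. Peaks found in replicate 2 only made up 11.8% in the X centre, above the 3.66 to 8.99% of the 5 autosome centres and near the 10.5% of the X arms. The number of replicate 2 peaks per replicate 1 peak was 0.613 in the X centre, against 0.825 on the X arms, 0.448 to 0.638 in the autosome centres and 0.803 over the genome. Peak density also differed between these parts, as given at the end, and its part in these shares was not tested.

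**Figure D2:**
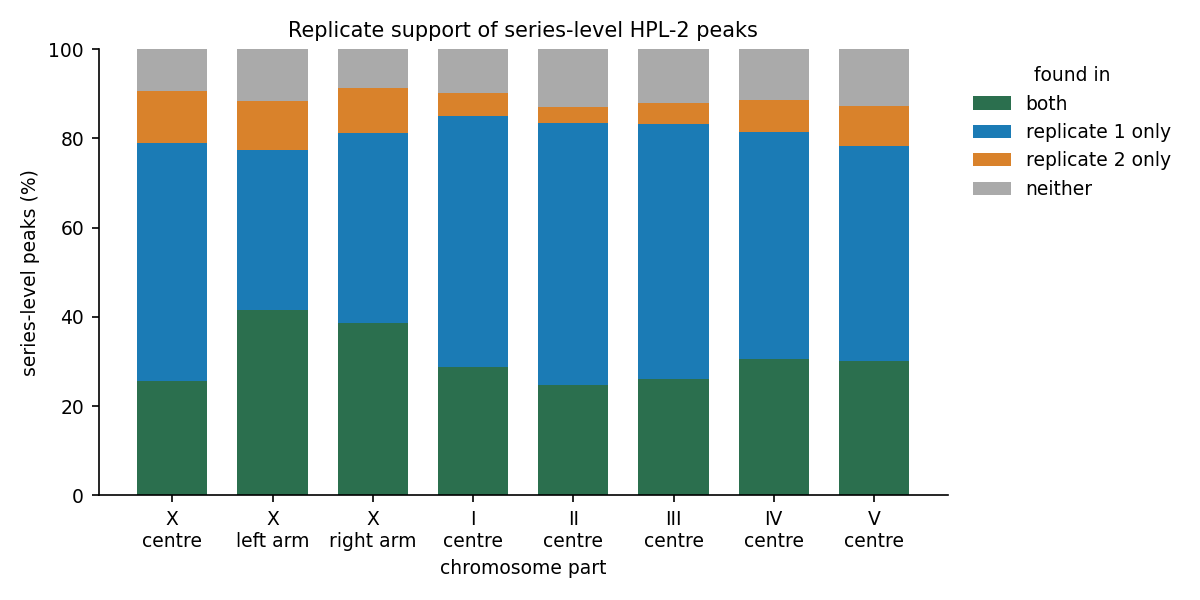
Share of series-level HPL-2 peaks (vertical axis, percent) found in both replicate lists, in replicate 1 only, in replicate 2 only or in neither, for the X centre and, to its right, the X arms and the 5 autosome centres. The X centre has 25.5% of peaks found in both, within the 24.8 to 30.6% of the autosome centres and under the 38.6 and 41.5% of the X arms.

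Support followed score and width. The series has only these 2 ChIP libraries, so series-level score and replicate support are not independent measures. The median score was 20.21 for peaks found in both replicates and 11.7 for replicate 1 only. Over all series-level peaks these medians were 27.54 and 10.56. In the lowest score quartile of the X centre (130 peaks, scores 1.40 to 5.98), 6 peaks or 4.62% were found in both replicates, and 36 were found in neither. The share found in both was 20.2% in the second quartile, 29.5% in the third quartile and 48.1% in the highest (62 of 129 peaks, scores 22.56 to 86.26). Support by score quartile was not counted in other parts or over the genome. The 2 lists differed in how they followed the score. Replicate 1 contained 45.4, 73.6, 96.9 and 100% of the peaks from the lowest to the highest quartile, while replicate 2 contained 31.5, 38.8, 31.0 and 48.1%. Of the 216 X centre peaks at or above the median score of the whole series-level list, 124 were found in replicate 1 only. The matching share over the genome was not computed. The highest-scoring of the 124 ran from 11757708 to 11757970 (263 bp, score 63.20), from 10963659 to 10963895 (237 bp, 61.87) and from 6207684 to 6207986 (303 bp, 59.66). The nearest replicate 2 peaks were 1081, 16225 and 13570 bp away, in the same order.

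Peaks found in replicate 2 only or in neither replicate were low in series-level score, with medians of 5.49 and 4.51. Over all series-level peaks these medians were similar, at 6.23 and 4.93. The highest score among those found in replicate 2 only was 15.50, shared by a peak from 8409456 to 8409638 and one from 7758364 to 7758527. In the replicate 2 list itself the peaks there scored 14.85 and 19.24, above the X centre median of that list, 8.815. Among those found in neither, the highest was 11.72, for a peak of 175 bp from 11797988 to 11798162 that lay 8664 bp from the nearest replicate 1 peak and 8017 bp from the nearest replicate 2 peak. The next were from 11656724 to 11656877 (score 10.73), from 10566836 to 10567004 (8.74), from 7347064 to 7347209 (7.83) and from 10340116 to 10340261 (7.64). All 5 were at most 175 bp wide.

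Series-level peaks of the X centre had a median width of 224 bp (quartiles 181 and 324). The median was 224 bp in the replicate 1 list and 200 bp in the replicate 2 list (212 ± 17.0 on average, SD, n = 2). Elsewhere the series-level median was 234 bp on the X arms and 244 bp in the autosome centres, and over the genome it was 259 bp. The narrowest X centre peak was 146 bp in each list. By support, the median was 347.5 bp for peaks found in both replicates (quartiles 240.5 and 558), 220.5 bp for replicate 1 only, 171 bp for replicate 2 only and 161.5 bp for neither. Over all series-level peaks these medians had the same order, at 394, 227, 185 and 161 bp. A wide peak meets the overlap rule more easily, so width and support are not independent measures. Support by width class was counted in the X centre only. Of 177 peaks up to 200 bp wide, 6 were found in both replicates (3.39%). Of the 19 wider than 1 kb, 17 were, and the remaining 2 were found in replicate 1 only. Those 19 peaks held 45.0 kb, or 24.8% of all sequence in X centre peaks. Peaks wider than 1 kb were 3.68% of the peaks in the X centre, against 3.12% on the X arms and 5.26% in the autosome centres, a difference that was not tested.

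**Figure D3:**
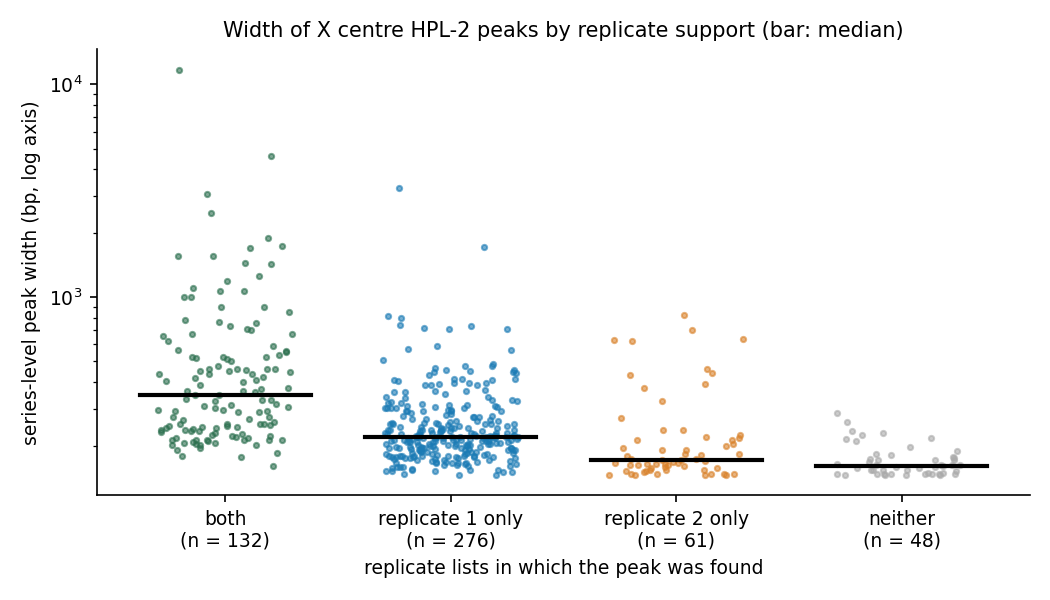
Width in bp (vertical log axis) of each of the 517 series-level peaks of the X centre, grouped by the replicate lists in which the peak was found; points are peaks and bars are medians (347.5, 220.5, 171 and 161.5 bp). The 2 widest peaks were found in both replicates, and no peak found in neither was wider than 286 bp.

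Peak edges in the series-level list followed replicate 1 closely. For 396 pairs in which 1 series-level peak overlapped 1 replicate 1 peak and no other, both edges lay within 20 bp of each other in 257, and the series-level peak was wider by a median of 10 bp. For 177 such pairs with replicate 2, both edges lay within 20 bp in 25, and the series-level peak was wider by a median of 35 bp. The pairs with replicate 1 and with replicate 2 are different sets of peaks, with median series-level widths of 238.5 and 253 bp. Edges were not compared on the same peaks in both replicates. Few peaks were split: 8 series-level peaks overlapped several replicate 1 peaks, and 10 overlapped several replicate 2 peaks, at most 4.

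The widest peak of the X centre ran from 7351295 to 7363049 (11755 bp) and alone held 6.47% of the sequence in X centre peaks. Replicate 1 had 2 peaks across it, of 7365 and 4217 bp, and replicate 2 had 3, of 10106, 391 and 705 bp, so that 98.5% and 95.3% of it lay in peaks of the replicates. Its score of 23.41 was exceeded by that of many narrow peaks; it was above 69.8% of all series-level peaks. The first and the third X centre peaks by score lay on either side of it. The first, from 7364921 to 7365435 (515 bp, score 86.26), began 1871 bp beyond its right edge, and replicates 1 and 2 had peaks of 392 and 403 bp there. The third, from 7344345 to 7344844 (500 bp, score 75.96), ended 6450 bp before its left edge, where replicate 1 had a peak of 447 bp and replicate 2 a peak of 1548 bp. With gaps of up to 1 kb merged, the widest peak became part of a region of 15.8 kb, from 7351295 to 7367138, with 7 series-level, 8 replicate 1 and 6 replicate 2 peaks that filled 91.8% of its length in the series-level list.

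**Figure D4:**
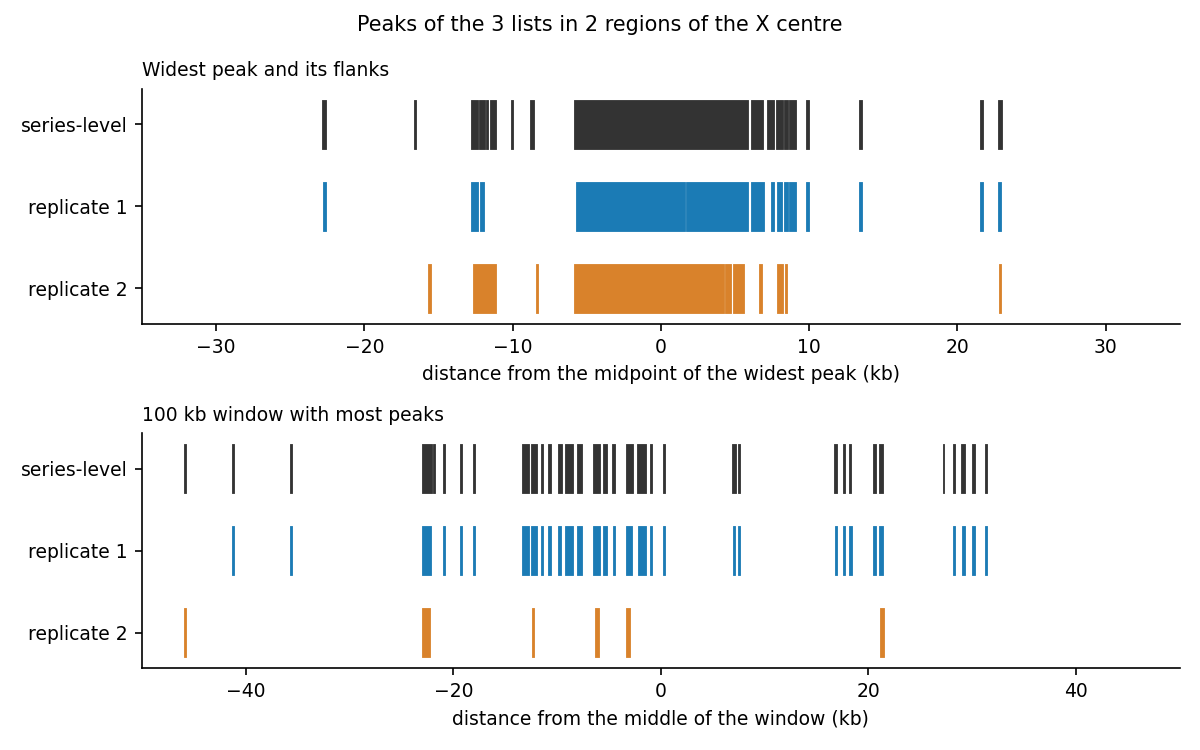
Peaks of the series-level list and of replicates 1 and 2 (rows) around the widest peak of the X centre (top, distance from its midpoint in kb) and in the 100 kb window with most peaks (bottom, distance from the middle of the window in kb); bars are peaks drawn to scale. All lists have broad peaks across the 11755 bp peak, whereas the lower region has 34 series-level and 31 replicate 1 peaks and 6 in replicate 2.

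The other 9 of the 10 widest peaks lay between 6252120 and 11480581. The second and the fourth widest lay side by side, from 11471797 to 11476432 (4636 bp, score 57.49) and from 11477518 to 11480581 (3064 bp, 38.85), in a merged region of 12.1 kb from 11471101 to 11483204. Replicate 1 covered 94.6% and 99.4% of these peaks, and replicate 2 covered 31.5% and 19.9%. The third widest, from 8243243 to 8246512 (3270 bp, score 54.20), was present as 1 peak of 3272 bp in replicate 1 and had no replicate 2 peak within 13217 bp. The eighth widest, from 10184117 to 10185833 (1717 bp), also lacked a replicate 2 peak, the nearest being 25193 bp away. The fifth widest, from 9605324 to 9607802 (2479 bp), had the second highest score, 83.40. It was a single peak of 2454 bp in replicate 2 and 3 peaks of 790, 232 and 793 bp in replicate 1.

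The sixth and the ninth widest, from 8019576 to 8021471 (1896 bp) and from 8021521 to 8023222 (1702 bp), were neighbours in a merged region of 8.11 kb from 8015954 to 8024062 that held 6 series-level, 7 replicate 1 and 9 replicate 2 peaks. Replicate 1 covered 91.4% of the sixth widest and 98.9% of the ninth, and replicate 2 covered 8.86% and 69.2%. The seventh widest, from 9007155 to 9008901 (1747 bp, score 63.22), was covered to 79.5% by replicate 1 and to 78.2% by replicate 2. The tenth widest, from 6252120 to 6253688 (1569 bp), was covered to 88.1% and 13.3%. Among high-scoring peaks, the fourth and the fifth ran from 8158925 to 8159825 (901 bp, score 66.57) and from 8157096 to 8157410 (315 bp, 65.65), and both replicates had a peak at each. No X centre peak reached the highest score of the list, 102.28. The same held for the centres of I and II and for the right arm of X. Scores above the X centre maximum of 86.26 were held by 538 of the 23530 series-level peaks. These included 20 of 1763 X arm peaks and 21 of 3686 autosome centre peaks. Scores at or above the list's median were found for 41.8% of X centre peaks, against 47.5% of X arm peaks and 41.5% of autosome centre peaks.

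Most X centre peaks did not have a neighbour within 1 kb. In the series-level list 236 of 517 peaks (45.6%, Wilson 95% interval 41.4 to 50.0%) had another peak at a gap of up to 1 kb, with 45.8% in replicate 1 and 32.5% in replicate 2. The share was 51.5% on the X arms, 62.9% in the autosome centres and 73.1% over the genome in the series-level list. Within 5 kb it was 77.0% in the X centre and 92.9% over the genome. The difference from the X arms depended on the distance: within 500 bp the series-level share was 36.2% in the X centre and 36.9% on the X arms, and in replicate 1 the order turned round, with 37.99% in the X centre and 36.4% on the X arms. Peak density, on which this share depends, also differed between these parts, and no test was made at matched density. By support, a neighbour within 1 kb was present for 50.0% of X centre peaks found in both replicates and 49.3% of those in replicate 1 only. It was present for 26.2% of those in replicate 2 only and 37.5% of those in neither. Joining peaks at most 1 kb apart left 361 regions. Of these, 281 were a single peak, 50 held 2 peaks, 18 held 3 or 4, and 12 held 5 or more. Those 12 contained 77 peaks, or 14.9%. Only 5 merged regions were 5 kb or longer: the 3 named above, 1 from 10646587 to 10652375 (5.79 kb, 7 peaks) and 1 from 6739703 to 6745139 (5.44 kb, 9 peaks). The last 2 each had 6 peaks found in replicate 1 only, and replicate 2 had a single peak in each. At the other extreme, 119 peaks (23.0%) had no neighbour within 5 kb and 25 had none within 20 kb; of these 25, both replicates contained 6.

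Long stretches had no peak. Gaps between neighbouring series-level peaks had a median of 3396 bp (quartiles 685 and 16194), with 154 gaps under 1 kb, 193 from 1 to 10 kb, 154 from 10 to 50 kb and 17 of 50 kb or more. The 17 long gaps together spanned 1.14 Mb and took up 19.3% of the X centre. Replicate 1 had 34 gaps of that length and replicate 2 had 36, taking up 37.9% and 50.4% of the X centre, and each list alone thus had at least 2 times as many long gaps as the series-level list. The union of the 3 lists left 15 gaps of at least 50 kb, which took up 15.2%. Since the threshold of each list is unknown, a gap does not show absence of HPL-2.

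The longest series-level gap ran from 6408909 to 6515377 (106.5 kb). It contained 2 replicate 1 peaks, with scores up to 4.83, and 1 replicate 2 peak of 264 bp with a score of 11.86. The next ran from 10821446 to 10900140 (78.7 kb, 1 replicate 1 peak), from 7380168 to 7456111 (75.9 kb, 1 replicate 2 peak), from 7681115 to 7756692 (75.6 kb, 2 replicate 2 peaks) and from 7823422 to 7898204 (74.8 kb, 1 replicate 2 peak). Each of these 5 longest gaps thus held at least 1 peak of a replicate list. Of all 17, 10 held no complete peak of either replicate, and the longest of those was from 7109693 to 7176886 (67.2 kb). The gaps of 75.9, 75.6 and 74.8 kb all lay in the 1.18 Mb stretch with most peaks, and the first of these began to the right of the merged region of the widest peak.

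**Figure D5:**
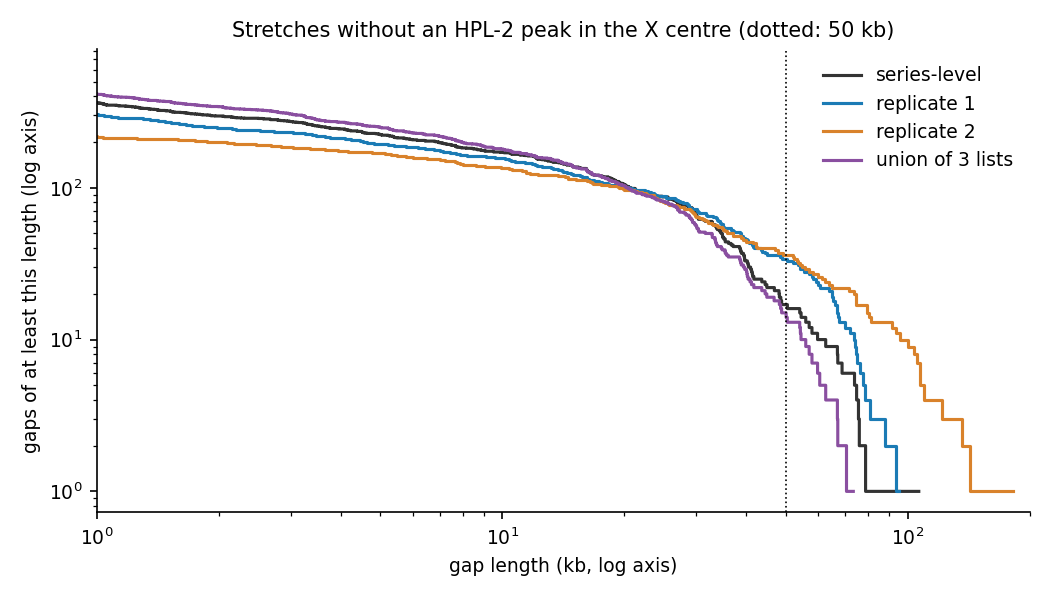
Number of gaps (vertical log axis) at least as long as the length on the horizontal axis (kb, log axis) between neighbouring peaks of the X centre, for the series-level list, each replicate and the union of the 3 lists; the dotted line marks 50 kb. At 50 kb the lists have 17, 34, 36 and 15 gaps.

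The longest gap of replicate 2 was 181.4 kb, from 9807626 to 9988979, where replicate 1 had 7 peaks and the series-level list 6. The longest gap of replicate 1 was 95.05 kb, shorter than the longest of the series-level list, and ran from 10299175 to 10394220, where replicate 2 had 10 peaks and the series-level list 5. Peaks found in both replicates left a gap of 344.6 kb, from 6296636 to 6641225, with 22 series-level peaks inside it. In number of series-level gaps of 50 kb or more per Mb, the X centre had 2.88, against 0.846 on the X arms and 1.09 to 3.30 in the autosome centres, the highest being on V. The median gap was 3396 bp in the X centre, against 2588 bp on the X arms and 1281 to 2079 bp in the autosome centres. The X centre was thus above the 5 autosome centres in its median gap and within their range in its number of long gaps.

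The X centre had the lowest peak density of the 6 chromosome centres in each list. In the series-level list it held 87.6 peaks per Mb, against 136.6 ± 27.2 (SD over 5 autosome centres, lowest 110.4), a log2 ratio of -0.64. Replicate 1 gave a log2 ratio of -0.68 and replicate 2 gave -0.48, on average -0.58 ± 0.14 (SD, n = 2). An exact one-sided permutation test of 1 centre against 5 cannot give less than p = 0.167, which was its value in each list, so the difference cannot pass a threshold of 0.05. In replicate 2 the X centre, at 45.4 peaks per Mb, was close to the centre of chromosome II, at 47.7. By share of sequence in replicate 2 peaks the X centre was not the lowest, with 1.41% against 1.30% in the centre of II. Counted as merged regions the log2 ratio to the autosome centres in the series-level list was smaller, at -0.31. By base pairs covered it was -0.76, and with peaks found in both replicates -0.77. Against its own arms the X centre had a log2 ratio of -0.77 (series-level), -0.75 (replicate 1) and -1.17 (replicate 2), and with peaks found in both replicates alone it was -1.41. A single chromosome gives no test of that ratio.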

How the data were processed

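Peak lists of 2 HPL-2 ChIP replicates and 1 series-level list were analysed. The deposited lists give each peak's start, end and score; per the file headers the build is WormBase WS220, with MACS in the source column. The submitters' processing notes name BWA and ce10. MACS version, threshold, control, the scale of the deposited score and the way replicates were combined are not stated in the labels or headers. Read depth is unknown.

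Samples were grouped by title. Chromosome length was the largest end over the lists, and autosome centres are the middle of 3 equal parts. Overlap means at least 1 bp; gaps are edge to edge; merging used gaps of up to 1 kb; intervals are Wilson 95%. Regions named are the 10 widest peaks, the highest-scoring, the 5 longest gaps, the 5 widest merged regions and the extreme windows; the peaks found in a single replicate were added later. Members, rules and alternatives were chosen with earlier results of these data known. The only gene table used a different build (WBcel235), so the position of peaks relative to genes and their sequence are not reported. Python 3.11.15, numpy 2.4.6, pandas 2.3.3 and scipy 1.17.1 were used. On 583 simulated peaks, overlap and gap counts were tested against direct counts, with 0 differences.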

Additional observations from a re-analysis of the deposited data

How the results depend on the processing

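Of 41 alternative settings over 7 results, 20 left the value within the spread between replicates, its Wilson interval or 1.5 times a count. The spread between replicates rests on n = 2 and does not measure the distance of the series-level list from a replicate. For settings with a single replicate list, it comes from the same values that are judged. The count of 20 is therefore no measure of robustness. The other 21 settings moved the value further. A reversal meant a change of sign, which only the log2 ratios could show, and 0 were found. After seeing the data, 5 settings were added. Each replicate list alone gave a density of 45.4 to 74.1 peaks per Mb, log2 ratios of -1.17 to -0.75 against the X arms and -0.68 to -0.48 against autosome centres, a median width of 200 to 224 bp, 34 to 36 long gaps and a neighbour share of 32.5 to 45.8%. Peaks found in both replicates gave 22.4 peaks per Mb, -1.41 against the X arms and 347.5 bp. Peaks scoring at or above the list's median gave 36.6 peaks per Mb, 41.7% found in both and 45 long gaps. Merged regions gave 61.2 per Mb and -0.31 against autosome centres. With 50% of the peak covered in each replicate, 19.9% were found in both. Long gaps numbered 68 from 30 kb, 1 from 100 kb, and 10 without a complete replicate peak. The neighbour share was 36.2% within 500 bp and 77.0% within 5 kb. Fewer peaks, or another limit, enter these settings by construction; for the other moves the cause was not tested. Without the densest window the density was 83.3 peaks per Mb and 26.3% of peaks were found in both. Position relative to genes was not run. No paired analysis was possible because only ChIP libraries have lists analysed here. Unknown list thresholds and read depth limit every result.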
